A study of Homo sapiens with 95 samples.

Results

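AALE cells carrying a CRISPR knockout of CDKN2A were compared with the GFP control cells of the same study in the DMSO vehicle. Expression was measured by 3′ digital gene expression (3′DGE), in which each captured molecule carries a unique molecular identifier (UMI) and only the 3′ end of polyadenylated RNA is read. The wells were taken by title: replicates 1 to 3 of CDKN2A and of GFP under DMSO, 6 of 95 wells in the series. AALE is an immortalized human bronchial epithelial line. The GFP cells had been transfected with the pSpCas9-EGFP plasmid PX458, which expresses Cas9 and green fluorescent protein, and received no guide RNA. A second control, the HcRed cells, carried an empty overexpression vector with the HcRed reporter, and their 3 DMSO wells were used to place each difference. All 9 wells were grown to confluency in 24-well plates and given DMSO without a test compound. The sources used here do not give the guide, the editing of the locus, or whether each population was a single clone or a pool. The paper calls its replicates biological, but does not say how far the wells of a group were cultured apart. The p-values therefore rest on the spread between these wells, which may be technical. With 3 wells a side, the limma fit took that spread mostly from all genes together and only in small part from each gene. The shared spread had the weight of 100 degrees of freedom for CDKN2A against GFP and 133 for CDKN2A against HcRed.

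CDKN2A encodes a pair of proteins read in different frames. The p16INK4a protein blocks the cyclin D kinases CDK4 and CDK6 and so keeps RB bound to E2F factors, which drive S phase genes. The ARF protein binds MDM2 and spares p53 from degradation. The gene is often deleted in squamous cancers of the airway, and AALE cells were immortalized with SV40 large T antigen, which binds RB and p53, and with telomerase.

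Total UMI counts ran from 1388769 to 1792617 in the CDKN2A wells, from 1191511 to 1364142 in the GFP wells and from 1168645 to 1359967 in the HcRed wells, so the CDKN2A wells were deeper than every GFP well. Between 12588 and 12980 genes were detected in the CDKN2A wells, against 11626 to 11990 in the GFP wells. CDKN2A replicate 2 stood apart from its group. Its counts differed from those of replicates 1 and 3 by a chi-square per degree of freedom of 2.76 and 2.89, where the other pairs within the CDKN2A, GFP and HcRed groups gave 1.17 to 1.34. Several counts below, among them the genes past the test against GFP, were therefore also made without this well. Others were not, among them the genes without overlap of wells and those past both controls. On the library plate the CDKN2A wells shared their columns with PIK3CA wells, the GFP wells with NRG1 wells and the HcRed wells with NRF2 wells, in other rows, and the part of plate position was not tested. Levels are given as CPM, counts scaled to a common library size with TMM factors. The 8 markers of airway basal epithelium summed to 690 to 772 CPM in the CDKN2A wells, 780 to 865 in the GFP wells and 1114 to 1141 in the HcRed wells. Of 6 fibroblast markers 4 had a count in the CDKN2A wells, with summed levels of 1.2 to 3.5 CPM against 0 to 2.49 in the GFP wells, and COL1A2 and COL3A1 were at 0. Of 4 leukocyte markers 3 had a count, at 4.09 to 9.02 against 2.84 to 5.80 CPM, with CD3E at 0. Of 3 endothelial markers only PECAM1 had a count, at 1.75 to 3.01 against 0 to 1.66 CPM, and CDH5 and VWF were at 0. Of the basal markers EPCAM rose and KRT5 and KRT14 fell, and none of the 4 tested markers of the other cell types passed the test.

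The targeted gene was examined first. CDKN2A (chr9:21967751-21995300 in hg19, on 9p21) had 34, 33 and 34 counts in the CDKN2A wells, 46, 42 and 50 in the GFP wells and 24, 32 and 29 in the HcRed wells. In CPM this was 18.2, 19.3 and 20.4 in the CDKN2A wells, 38.1, 34 and 35.5 in the GFP wells and 19.7, 21.6 and 21.5 in the HcRed wells. The CDKN2A wells lay below all GFP wells and overlapped the HcRed wells. The log2 fold change was -0.89 (SE 0.21, limma adjusted p = 8.53e-04) against GFP and -0.13 (SE 0.23, limma adjusted p = 0.774) against HcRed. GFP was itself higher than HcRed, at 0.76 (SE 0.19, limma adjusted p = 0.00552). Among the 8 populations under DMSO, with 3 wells each, the mean level was highest in GFP cells at 35.8 CPM, followed by NRF2 cells at 29.0, NRG1 cells at 27.9, FGFR1 cells at 24.7, PIK3CA cells at 23.3, FAT1 cells at 21.2, HcRed cells at 20.9 and CDKN2A cells at 19.3. Wells of NRF2 and NRG1 cells reached into the GFP range, and wells of FGFR1, FAT1 and HcRed cells overlapped the CDKN2A range. The 3′ counts do not read the edited site, so they do not check whether the coding sequence was cut.

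The neighbouring genes of 9p21 were lower in value, and in the 6 wells of CDKN2A and GFP they did not pass the test. CDKN2B, which encodes the related kinase inhibitor p15INK4b (chr9:22002902-22009304), measured 6.42, 6.42 and 5.41 CPM in the CDKN2A wells against 7.46, 12.1 and 8.51 in the GFP wells and 4.92, 9.45 and 3.71 in the HcRed wells. These rest on 9 to 12 counts a well in the CDKN2A group, and the log2 fold change was -0.58 (SE 0.36, limma adjusted p = 0.279). MTAP, an enzyme of the methionine salvage pathway (chr9:21802635-21937650), measured 66.9, 68.3 and 69.2 CPM against 82, 95.4 and 87.2 in GFP and 97.5, 85.1 and 91.3 in HcRed. Its 3 CDKN2A wells lay below all 6 control wells, with a log2 fold change of -0.37 (SE 0.15, limma adjusted p = 0.077) against GFP and -0.42 (SE 0.15, limma adjusted p = 0.0449) against HcRed. MTAP passed the test against GFP without CDKN2A replicate 2 (limma, adjusted p = 0.0485), with a replicate block (0.0462), with a mean count above 10 (0.0470) and in a single fit over the 8 populations (0.0268). With the BaP and NNK wells added and chemical as a covariate, MTAP and CDKN2B both passed. The antisense RNA CDKN2B-AS1 had at most 4 counts in any of these wells, and DMRTA1 also at most 4. The sources used here do not state whether counting used strand, so reads of CDKN2B-AS1 and of genes it overlaps cannot be told apart.

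Across all genes, 2067 of 11575 tested genes (17.9%) passed an adjusted p of 0.05 between CDKN2A and GFP cells, 1000 higher (8.64%) and 1067 lower (9.22%) in CDKN2A cells. The log2 fold change exceeded 1 either way in 830 of them, 503 higher and 327 lower. Scaling to library totals in place of TMM moved the median of all genes from 0.03 to 0.13 in log2 and the split to 1272 higher and 792 lower, so directions below are relative to the TMM scale. Without CDKN2A replicate 2 the split was 1202 higher and 1001 lower. The wells of the groups did not overlap for 3775 genes (32.6%), and for 1958 of those that passed (16.9% of all tested).

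The genes with the smallest adjusted p among the higher ones included ferritin, polyamine, sterol and chaperone genes. FTL, the light chain of the iron store ferritin, measured 11794, 9389 and 11651 CPM in the CDKN2A wells, 3870.1, 3449 and 3814 in the GFP wells and 4353, 4025 and 4374 in the HcRed wells. All CDKN2A wells lay far above both controls, with replicate 2 the lowest of the 3, and the log2 fold change was 1.56 (SE 0.07, limma adjusted p = 3.29e-37) against GFP and 1.36 (SE 0.08, limma adjusted p = 1.28e-30) against HcRed. SAT1, which acetylates polyamines for breakdown, measured 1215, 973 and 1268 CPM against 420.1, 459 and 493 in GFP and 450.0, 415 and 419.6 in HcRed wells. Its CDKN2A wells again lay above all 6 control wells, and the difference from GFP was 1.33 (SE 0.10, limma adjusted p = 2.65e-20). SC5D, an enzyme late in cholesterol synthesis, measured 203, 173 and 235 CPM against 46.4, 54.2 and 51.1 in GFP and 81.1, 83.7 and 80.2 in HcRed. The HcRed wells lay between, and the difference was 1.99 (SE 0.15, limma adjusted p = 2.46e-20) from GFP and 1.30 (SE 0.14, limma adjusted p = 5.57e-13) from HcRed. A further enzyme of that pathway, MSMO1, rose by 1.16 (SE 0.11). HSP90AA1, the inducible cytosolic HSP90 chaperone, measured 4360.2, 4368 and 4278 CPM against 2431, 2635 and 2426 in GFP and 2879.6, 2499 and 2474 in HcRed wells. Its CDKN2A wells lay above all 6 control wells, while the wells of the controls overlapped, at 0.80 (SE 0.08, limma adjusted p = 1.39e-15).

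The remaining genes of this rank were SERPINI1, SNHG8 and OST4. SERPINI1, which encodes the protease inhibitor neuroserpin, measured 86.1, 79.99 and 99.8 CPM in CDKN2A wells against 24, 18.6 and 17.7 in GFP and 24.6, 18.2 and 19.3 in HcRed wells. The controls overlapped each other and lay below all CDKN2A wells, with differences of 2.13 (SE 0.20, limma adjusted p = 3.66e-15) and 2.09 (SE 0.20, limma adjusted p = 4.65e-16). SNHG8, a snoRNA host transcript, and OST4, a small subunit of the oligosaccharyl transferase, rose by 1.32 (SE 0.13) and 1.05 (SE 0.10), with the HcRed wells between. By size of change among genes of at least 50 CPM in a group, the list added MAP9, a microtubule-associated protein of the spindle, at 2.16 (SE 0.25), TFDP2, a dimer partner of E2F factors, at 2.07 (SE 0.21), MLLT11 at 2.0 (SE 0.24) and TPRG1 at 1.94 (SE 0.23). TFDP2 measured 85, 72.4 and 74.6 CPM in CDKN2A, 17.4, 23.5 and 14.9 in GFP and 46.7, 39.2 and 38.6 in HcRed wells, so the 3 groups were separate and HcRed lay between.

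Among the lower genes were ribosomal proteins, an annexin, a lysosomal protease and genes of the epithelial surface. RPS18, a protein of the small ribosomal subunit, measured 7108, 5609 and 6787 CPM in the CDKN2A wells against 13759.5, 13233 and 12888 in GFP and 9312, 9132 and 9767 in HcRed wells, and RPS6, of the same subunit, was -1.0 (SE 0.06, limma adjusted p = 1.94e-25). For RPS18 the 3 groups were separate, with a difference of -1.03 (SE 0.06, limma adjusted p = 6.36e-27) from GFP and -0.54 (SE 0.08, limma adjusted p = 4.35e-08) from HcRed. ANXA1, a calcium-dependent membrane binding protein that restrains inflammation, measured 842, 612 and 874 CPM against 2061, 2000.1 and 2207 in GFP and 1330.4, 1355 and 1410.2 in HcRed wells. CDKN2A replicate 2 was the lowest well and all 3 lay below the controls, at -1.44 (SE 0.09, limma adjusted p = 5.40e-25). CTSV, a lysosomal cysteine protease of epithelium, measured 174, 138 and 168 CPM against 495, 527 and 570.1 in GFP and 373, 365 and 453 in HcRed wells, a difference of -1.73 (SE 0.12, limma adjusted p = 1.20e-23). DNAJC15, a co-chaperone of the mitochondrial inner membrane, fell by 1.70 on the log2 scale, and FXYD3, a regulator of the sodium pump in epithelium, by 1.31. The 8 lower genes of this rank also included MFAP5 and PSAT1, described below.

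The largest decreases among genes of at least 50 CPM in a group were in MFAP5, MELK and PHACTR3. MFAP5, a protein of elastic microfibrils, measured 3.21, 6.42 and 3.01 CPM in CDKN2A wells against 87.8, 92.2 and 95 in GFP and 52.5, 37.1 and 40.8 in HcRed wells. The difference was -4.44 (SE 0.33, limma adjusted p = 2.17e-21) from GFP and -3.35 (SE 0.34, limma adjusted p = 6.71e-15) from HcRed. MELK, a mitotic kinase encoded on 9p, measured 32.6, 22.2 and 42.1 CPM against 131, 158 and 138 in GFP and 103, 90.5 and 107 in HcRed wells, at -2.17 (SE 0.17, limma adjusted p = 4.94e-20). PHACTR3, a regulator of protein phosphatase and actin, and SCEL, a precursor of the cornified envelope, fell by 2.07 and 1.75 on the log2 scale, with the HcRed wells above the CDKN2A wells in both.

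**Figure D1:**
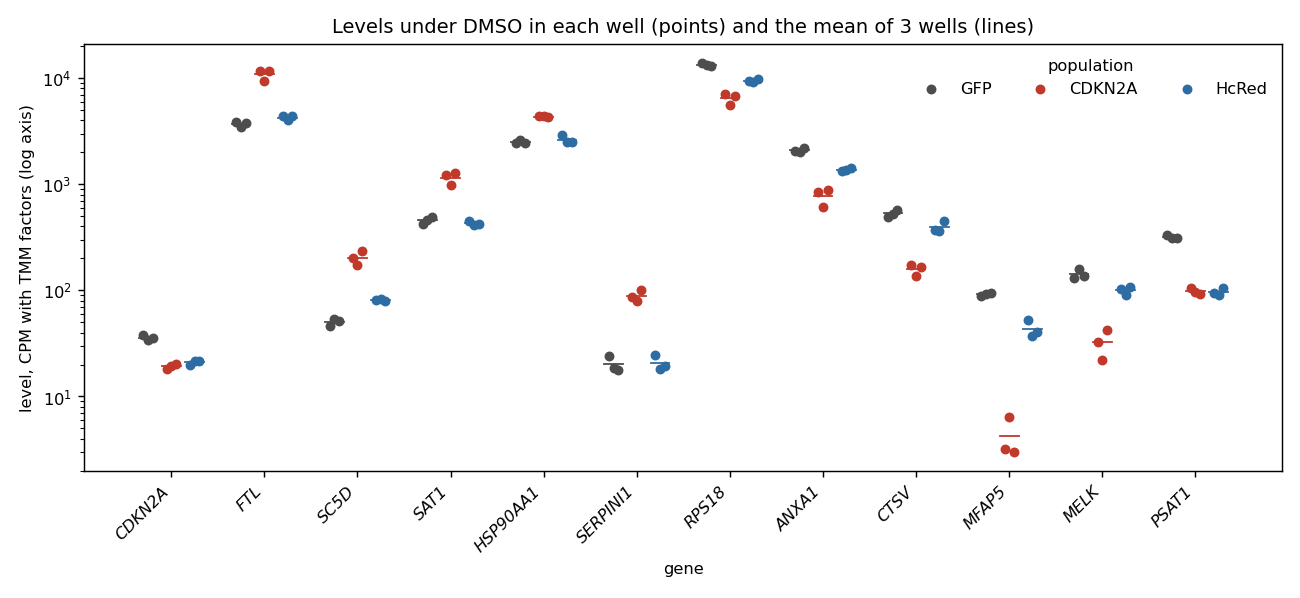
Levels of 12 named genes in each DMSO well of GFP, CDKN2A and HcRed cells, in CPM with TMM factors on a log axis, with the mean of 3 wells as a line. For MFAP5 the CDKN2A wells sit between 3.01 and 6.42 CPM against 87.8 to 95.0 in GFP wells, while for CDKN2A itself and PSAT1 the HcRed wells sit with the CDKN2A wells.

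A further rule took genes that passed the test against both controls without overlap with either, 907 genes in all, and ranked those of at least 20 CPM by the smaller of their changes. Among the higher ones BCHE, which encodes butyrylcholinesterase, had 107 counts over the CDKN2A wells, at 26.2, 15.2 and 19.2 CPM, and 0 in every GFP and HcRed well. Taking 3 counts per well as the floor, this was at least 8.65-fold higher than in GFP and at least 9.09-fold higher than in HcRed wells. KHDC1L measured 56.2, 38.5 and 45.1 CPM against 10.8, 3.24 and 7.80 in GFP and 3.28, 3.38 and 5.20 in HcRed wells, a difference of 2.75 (SE 0.32, limma adjusted p = 1.51e-11) from GFP. PMP22, a tetraspan membrane protein named for peripheral myelin, measured 32.1, 36.2 and 38.5 CPM against 5.80, 5.66 and 6.38 in GFP and 5.74, 4.73 and 5.20 in HcRed wells, and CLGN, a chaperone of the endoplasmic reticulum, rose by 2.75 (SE 0.31). FABP6, a bile acid binding protein, rose by 3.11 (SE 0.50) from few counts, 3.31, 0.809 and 2.84 CPM in the GFP wells.

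Among the lower ones IRX2, a homeobox transcription factor, had 1 count over the 3 CDKN2A wells and 78 over the GFP wells, a ratio of 106 with a 95% counting interval of 18.5 to 4247. The HcRed wells held 46 counts, a ratio of 59.6 (10.2 to 2405). These intervals and the floor cover counting error only. KRTDAP, a keratinocyte differentiation protein, measured 0.535, 1.17 and 1.80 CPM in CDKN2A wells against 6.63, 4.04 and 11.3 in GFP and 63.9, 45.9 and 40.1 in HcRed wells, so both controls lay above but at unlike levels. KLK7, a protease that sheds corneocytes, fell by 2.64 on the log2 scale against GFP and by 2.39 against HcRed. LMO7, a protein of cell junctions and nuclear envelope, fell by 2.23 and 1.83. KRTDAP, KLK7 and LMO7 were also low in other populations under DMSO. Mean KRTDAP was 1.17 CPM in CDKN2A cells, 0.221 in FGFR1, 1.07 in NRG1, 1.72 in FAT1, 1.85 in PIK3CA and 66.3 in NRF2 cells. Mean KLK7 was 3.07 CPM in CDKN2A cells, 2.12 in NRG1 and 2.03 in PIK3CA cells, and higher in FGFR1, FAT1 and NRF2 cells. Mean LMO7 was 9.63 CPM in CDKN2A cells and 10.5, 11.7 and 11.8 in PIK3CA, FGFR1 and FAT1 cells. NRF2 and NRG1 cells were higher.

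The HcRed wells were then set beside both groups. On the log2 CPM scale the HcRed mean lay nearer GFP for 1301 of the 2067 genes (62.9%) and nearer CDKN2A for 766. For all tested genes the share nearer GFP was 55.7%. HcRed lay between the groups for 1493 genes, beyond GFP for 425 and beyond CDKN2A for 149. The CDKN2A level was the highest or lowest of the 8 populations for 73.9% of the 2067 genes and the GFP level for 47.2%, against 40.3% and 30.5% of all tested genes. Genes chosen for a gap between these populations tend to hold extreme ranks, so these shares are a description. GFP cells themselves differed from HcRed cells in 1202 of 11134 genes (10.8%), 661 higher (5.94%) and 541 lower (4.86%), and CDKN2A cells from HcRed cells in 1646 of 11730 (14%), 761 higher (6.49%) and 885 lower (7.54%). The 3 comparisons share wells. Without CDKN2A replicate 2, HcRed lay nearer GFP for 1433 of 2203 genes (65.0%).

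**Figure D2:**
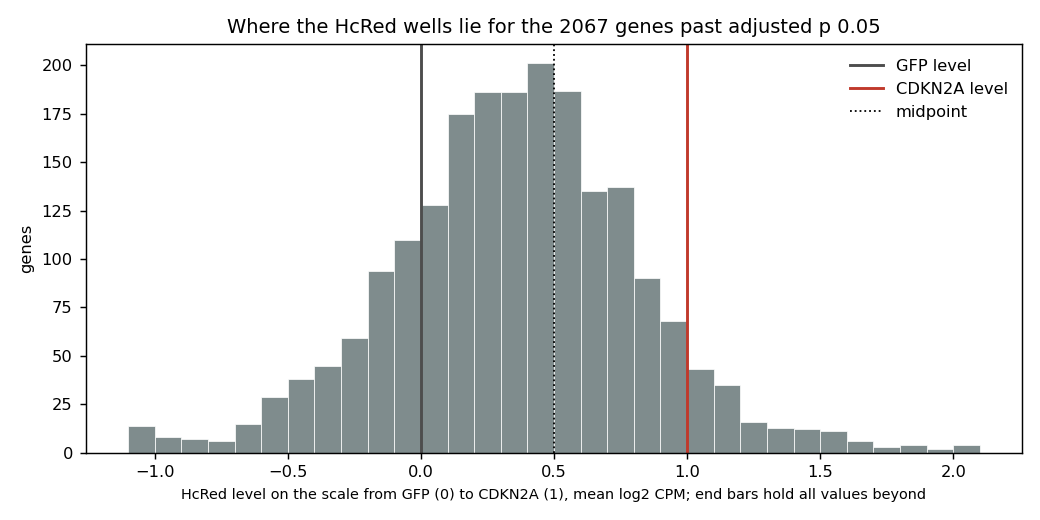
Histogram of the HcRed mean on a scale where the GFP mean is 0 and the CDKN2A mean is 1 (log2 CPM), over the 2067 genes past adjusted p 0.05, with counts of genes on the vertical axis. Most genes, 1493, fall between the 2 lines. On the GFP side of the midpoint lie 1301 of the 2067 genes, a number that includes the 425 beyond the GFP line.

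For several named genes the CDKN2A wells lay with HcRed and apart from GFP. PSAT1, an enzyme of serine synthesis, measured 335, 314 and 308 CPM in GFP wells, 105, 96.3 and 93.2 in CDKN2A and 94.3, 89.8 and 105 in HcRed wells. CDKN2A and HcRed overlapped, and the log2 fold change was -1.69 (SE 0.13, limma adjusted p = 5.03e-21) against GFP but 0.03 (SE 0.15, limma adjusted p = 0.938) against HcRed. ASNS, which makes asparagine, showed the same order, at 337, 306 and 303 CPM in GFP, 118, 119.7 and 114 in CDKN2A and 111, 116 and 119.6 in HcRed wells. CCND1, which encodes cyclin D1, measured 47.6, 44.4 and 48.1 CPM in CDKN2A wells and 56.6, 40.5 and 37.1 in HcRed wells against 8.29, 14.6 and 11.3 in GFP wells. Its rise of 2.03 against GFP was 0.09 (SE 0.18, limma adjusted p = 0.81) against HcRed. The GFP mean of 11.4 CPM was not set apart from all other populations, with FAT1 cells at 11.1 and FGFR1 cells at 12.7 CPM. MYC was 1.78 (SE 0.39, limma adjusted p = 2.17e-04) against GFP and 0.10 (SE 0.26, limma adjusted p = 0.86) against HcRed, and its GFP wells, at a mean of 4.59 CPM, overlapped those of FAT1 cells at 5.37. IFITM3, an interferon-induced membrane protein, gave 2.33 and 0.25 in that order.

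Other genes stood between the controls, and were higher than GFP but lower than HcRed. S100A8, a subunit of the antimicrobial complex calprotectin, measured 114, 89.9 and 116 CPM in CDKN2A wells, 40.6, 47.7 and 54.6 in GFP and 697, 637 and 620.1 in HcRed wells. It was higher than GFP by 1.16 (SE 0.16, limma adjusted p = 1.29e-08) and lower than HcRed, at -2.61 (SE 0.13, limma adjusted p = 1.20e-39). The other subunit, S100A9, had 52 counts over the CDKN2A wells and 3 over the GFP wells, a ratio of 12.7 (95% counting interval 4.12 to 63.7), and was lower than HcRed at -1.29. FN1, fibronectin, was 1.65 against GFP and -1.07 against HcRed, IFI27 was 1.67 and -1.35, and TPM2, a tropomyosin, 2.16 and -0.90. All of these passed the test in both comparisons. SLPI, a secreted antiprotease, measured 554, 455 and 485 CPM in HcRed wells. It measured 48.7, 44.4 and 48.1 CPM in CDKN2A and 65.5, 65.5 and 75.2 in GFP wells. HcRed lay far above both of these groups but was not set apart from all other populations. The mean under DMSO was 498 CPM in HcRed cells and 490 in NRF2 cells. The means of PIK3CA, NRG1, FGFR1 and FAT1 cells ran from 99.3 to 237 CPM. Those of GFP cells at 68.7 and CDKN2A cells at 47.0 CPM were the lowest.

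Gene groups are given next by function, each as members past the test of members tested, with the median log2 fold change of the list. The share of all tested genes was 8.64% higher and 9.22% lower against GFP, and the values against HcRed stand beside them. Several groups had a share near this background and are given for completeness. The background was larger among better counted genes. With a mean count above 10, 1987 of 6188 genes passed, 1004 higher and 983 lower. Lists of well expressed genes stand out less against that share. No list was tested as a set.

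Most of the mitosis genes were lower in CDKN2A cells. Of 20 tested 14 fell and 0 rose against GFP (median -0.59), and 15 fell against HcRed (median -0.70). NUSAP1, a spindle protein, measured 397, 319 and 393 CPM in CDKN2A wells, 818, 793 and 794 in GFP and 603, 604 and 575 in HcRed wells. The 3 groups did not overlap, with -1.12 (SE 0.11, limma adjusted p = 1.39e-15) against GFP. TOP2A, the topoisomerase that untangles chromosomes, measured 254, 269.7 and 247 CPM against 541, 493 and 528 in GFP and 305, 320.1 and 309 in HcRed wells. The change was -1.02 (SE 0.11, limma adjusted p = 1.48e-12) against GFP, while the value against HcRed was -0.28 (SE 0.12, limma adjusted p = 0.114). KIF20A, a kinesin of cytokinesis, measured 51.3, 49.6 and 52.9 CPM against 118, 117 and 126 in GFP, a change of -1.23 (SE 0.15, limma adjusted p = 1.45e-10). The cyclins of the mitotic kinase fell less, CCNB2 by 0.83 and CCNB1 by 0.49 on the log2 scale, and the kinase itself, CDK1, by 0.57. Of the 6 that did not pass, PLK1 and BUB1 had values above 0, at 0.43 and 0.13. Leaving out CDKN2A replicate 2, 12 of 20 fell, and leaving out GFP replicate 3, 9 fell.

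The promoters of these genes are shown because the list moved mostly in a single direction and its members are known to share a promoter element, the cell cycle homology region, bound by the DREAM repressor complex that includes RB relatives. Its core TTTGAA was searched on both strands in the 250 bases before each RefSeq start site (GRCh38.p14). Of 20 mitosis genes 16 had a promoter in the table. The letters occurred in 9 of these genes, at 10 of 19 start sites (52.6%), against 13.3% of all 35116 start sites. Among the 9 genes, CDK1, CCNB2, CDC20, TOP2A, MKI67 and CKS2 were lower in CDKN2A cells, and PLK1, BUB1B and KIF11 did not pass the test. CCNB1, AURKB, KIF20A, CENPF, PTTG1 and NUSAP1 were lower without a match in this window, and BUB1 had neither a match nor a call. The 80 bases of 4 of the genes are printed 5′ to 3′ on the gene's strand, with TTTGAA or its reverse complement in capitals: CCNB2 at chr15:59105066-59105145 on the plus strand, CDC20 at chr1:43358879-43358958 on the plus strand, MKI67 at chr10:128126424-128126503 on the minus strand and CKS2 at chr9:89311115-89311194 on the plus strand.
CCNB2: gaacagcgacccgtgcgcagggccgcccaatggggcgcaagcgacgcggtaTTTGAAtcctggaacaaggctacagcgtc
CDC20: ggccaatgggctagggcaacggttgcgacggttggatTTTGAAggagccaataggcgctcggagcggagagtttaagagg
MKI67: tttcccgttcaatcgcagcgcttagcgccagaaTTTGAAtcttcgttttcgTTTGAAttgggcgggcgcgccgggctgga
CKS2: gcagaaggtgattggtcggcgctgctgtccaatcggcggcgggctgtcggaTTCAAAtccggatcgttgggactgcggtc
A match is a description of letters, and binding was not measured. MKI67, the proliferation antigen, was -0.42 (SE 0.16, limma adjusted p = 0.0499) against GFP, CDC20, the activator of the anaphase complex, -0.61 (SE 0.21, limma adjusted p = 0.0256), and CKS2, a kinase subunit, -0.65 (SE 0.09, limma adjusted p = 1.93e-08).

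Genes of replication that E2F drives moved less uniformly. Of 24 tested 8 fell and 2 rose against GFP (median -0.27), while 3 fell and 1 rose against HcRed. MCM7, a subunit of the replicative helicase, measured 52.4, 55.5 and 41.5 CPM in CDKN2A wells against 87.8, 105 and 104 in GFP and 71.3, 78.3 and 79.5 in HcRed wells, a change of -0.99 (SE 0.16, limma adjusted p = 4.00e-07). The subunits of ribonucleotide reductase went opposite ways, RRM1 at -0.67 (SE 0.12) and RRM2 at 0.91 (SE 0.16). RRM2 measured 86.6, 105 and 91.4 CPM against 55.5, 55.8 and 40.4 in GFP wells, with the HcRed wells between at 80.3, 59.4 and 78. TK1, thymidine kinase, rose by 0.60 (SE 0.20), while ORC1, of the origin recognition complex, fell by 1.18 on the log2 scale. With library totals in place of TMM, 5 members fell and 3 rose. DESeq2 gave 5 lower members, and there were 3 without GFP replicate 1 and 5 without GFP replicate 2.

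In the pathway that p16INK4a acts on, 1 of 11 cyclin D, CDK4/6 and RB genes tested rose and 2 fell. The rise was that of CCND1 described above. RB1 measured 6.95, 13.4 and 11.4 CPM in CDKN2A wells and 19.1, 21.8 and 22.7 in GFP wells, at -1.06 (SE 0.27, limma adjusted p = 0.00237), and CDKN1C, a kinase inhibitor, was -1.38 (SE 0.44). CDK4 had a value of -0.61 (SE 0.24, limma adjusted p = 0.059) and did not pass. Against HcRed 1 rose and 2 fell. Of 17 p53 targets tested, 1 rose and 1 fell (median -0.05). TP53I3, an oxidoreductase induced by p53, was 1.15 (SE 0.27, limma adjusted p = 5.72e-04) against GFP and 0.02 against HcRed. DDB2, a damage sensor of nucleotide excision repair, was -1.66 (SE 0.35, limma adjusted p = 1.59e-04) and -1.09. The kinase inhibitor CDKN1A measured 23, 22.8 and 16.8 CPM in CDKN2A wells and 19.1, 23.5 and 22 in GFP wells, which overlapped, and MDM2 was 0.21 (SE 0.21). Against HcRed 1 p53 target rose and 2 fell. These shares are near the background of all genes.

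Many heat shock proteins and subunits of the cytosolic chaperonin were higher. Of 19 tested 10 rose and 0 fell (median 0.37), and against HcRed 5 rose and 2 fell. HSPD1, the mitochondrial chaperonin, measured 1595, 1341 and 1626 CPM in CDKN2A wells, 1059.7, 1032 and 1007 in GFP and 1118, 1162 and 1158 in HcRed wells, and its partner HSPE1 1653, 1174 and 1583, 888, 943 and 852 in GFP and 1200.0, 1082 and 1121 in HcRed wells. For both genes every CDKN2A well lay above every GFP well, at 0.56 (SE 0.09, limma adjusted p = 6.62e-07) and 0.71 (SE 0.10, limma adjusted p = 3.59e-09). CCT4, a subunit of the cytosolic chaperonin, was 0.75 (SE 0.14) against GFP and 0.26 (SE 0.14, limma adjusted p = 0.199) against HcRed. HSPA1A measured 9.63, 11.7 and 15 CPM against 1.66, 3.24 and 1.42, but its near-identical copy HSPA1B overlapped between groups, and reads could be split between them. Without CDKN2A replicate 2, 11 rose and 1 fell.

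The heat shock element, bound by HSF1, is shown for the same reason. Its 3 alternating units, GAA, TTC and GAA with NN between neighbours, were searched as above. The letters occurred in 4 of 18 genes with a promoter, at 4 of 26 start sites (15.4%), against 0.441% of all start sites. The genes were HSP90AA1, HSPA8 and HSPD1, which rose, and HSP90AB1, which did not pass. The windows of the first 2 are printed with the match in capitals, HSP90AA1 at chr14:102087086-102087165 on the minus strand and HSPA8 at chr11:123062145-123062224 on the minus strand.
HSP90AA1: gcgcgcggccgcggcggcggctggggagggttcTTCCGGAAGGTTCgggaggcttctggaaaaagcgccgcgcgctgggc
HSPA8: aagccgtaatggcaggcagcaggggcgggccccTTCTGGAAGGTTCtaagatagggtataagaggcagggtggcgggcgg
HSPA8, the constitutive HSC70, measured 1789, 1324 and 1741 CPM in CDKN2A wells against 1341, 1323 and 1354 in GFP and 1792, 1677 and 1796 in HcRed wells, a change of 0.26 (SE 0.09, limma adjusted p = 0.0282), with CDKN2A replicate 2 inside the GFP range. HSPA8, CDC20, CKS2 and MKI67 are named for their promoters and were chosen after their values were seen. HSF1 binding was not measured, and 7 of the 10 genes that rose had no match in this window or no promoter in the table.

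Sterol and fatty acid synthesis was higher in part. Of 20 members tested 6 rose and 0 fell (median 0.30), and against HcRed 9 rose and 1 fell. Besides SC5D, SQLE, an early enzyme of the sterol branch, measured 158, 152 and 173 CPM in CDKN2A wells, 104, 108 and 112 in GFP and 133, 104 and 116 in HcRed wells. Its CDKN2A wells lay above those of both controls, at 0.57 (SE 0.14, limma adjusted p = 7.62e-04) against GFP. ACLY, which supplies acetyl-CoA, rose by 0.72 (SE 0.18). Of 31 proteasome subunits 8 rose and 1 fell (median 0.07), and against HcRed 9 rose and 1 fell. PSMB1 measured 2365, 1891 and 2456 CPM against 1312, 1275 and 1352 in GFP and 1321, 1253 and 1259 in HcRed wells, a rise of 0.76 (SE 0.09, limma adjusted p = 8.65e-12). PSMD2 and PSMD11, of the regulatory particle, rose by 0.95 (SE 0.13) and 0.83 (SE 0.12), and PSMC3 fell by 0.59. Leaving out CDKN2A replicate 2, 13 subunits rose.

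Among NRF2 targets 5 of 22 tested rose and 3 fell (median 0.26), and the same numbers held against HcRed, where the median was -0.03. FTL led the list. The heavy chain FTH1 measured 669, 799 and 620.0 CPM in CDKN2A wells against 396, 406 and 388 in GFP and 443, 462 and 459.7 in HcRed wells, at 0.80 (SE 0.11, limma adjusted p = 2.52e-09). FGFR1 cells under DMSO had a higher FTH1 mean, 754 CPM (wells 661 to 920) against 696 in CDKN2A cells. The other populations were lower. SLC7A11, the cystine importer, measured 92.5, 95.7 and 66.1 CPM against 36.5, 38.8 and 31.9 in GFP and 16.4, 20.9 and 24.5 in HcRed wells, at 1.23 (SE 0.18, limma adjusted p = 2.79e-08). Its CDKN2A wells lay above those of both controls. ME1, which makes NADPH, rose by 1.19 (SE 0.27), but the pentose phosphate enzymes TKT and TALDO1 fell by 0.75 and 0.45 and thioredoxin, TXN, by 0.39. NQO1 was -0.35 (SE 0.13, limma adjusted p = 0.0526). Of 5 AHR targets TIPARP and CYP1B1 rose, by 1.01 (SE 0.28) and 1.14 (SE 0.32), and 1 rose against HcRed. Of 6 metallothioneins MT2A rose by 0.42 (SE 0.06) and MT1G fell by 2.26, with 0 past the test in either direction against HcRed.

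Many ribosomal protein and respiratory chain genes were lower. Of 79 cytosolic ribosomal proteins 48 fell and 5 rose (median -0.33), and 37 fell and 4 rose against HcRed. RPL7A measured 2809, 2289.8 and 2651 CPM in CDKN2A wells against 5032, 4854 and 5004 in GFP and 3769, 3400.1 and 3682 in HcRed wells, at -0.94 (SE 0.07, limma adjusted p = 7.89e-20). RPL26 fell against both, at -0.76 (SE 0.07) and -1.05, and RPLP0, of the stalk, at -0.64 (SE 0.07). RPS25 went the other way, at 4548, 3609 and 4404 CPM against 2719, 2832 and 2677 in GFP wells, 0.61 (SE 0.08, limma adjusted p = 3.04e-10), and RPS7, RPL34 and RPL35A rose by 0.50, 0.47 and 0.42. The last 4 lie on 11q, 2p, 4q and 3q. Of 49 nuclear subunits of the respiratory chain and ATP synthase 22 fell and 3 rose (median -0.23), and 13 fell and 4 rose against HcRed. NDUFB2, of complex I, measured 298, 252 and 295 CPM against 626, 599 and 609.8 in GFP and 395, 425 and 448 in HcRed wells, at -1.12 (SE 0.11, limma adjusted p = 7.95e-15). ATP5J2 and ATP5C1 of ATP synthase fell by 0.97 and 0.78 on the log2 scale, and ATP5L rose by 0.69. Without CDKN2A replicate 2 the members that rose were 11 ribosomal and 10 respiratory, and those that fell were 50 and 22.

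Glycolytic genes were lower or did not pass. Of 17 tested 5 fell and 0 rose (median -0.24), and 7 fell against HcRed. GAPDH measured 1955, 1587 and 1762 CPM in CDKN2A wells, 3206, 3039 and 3104 in GFP and 2624, 2485 and 2647 in HcRed wells, at -0.82 (SE 0.08, limma adjusted p = 1.16e-14). TPI1, GPI and PKM fell by 0.81, 0.80 and 0.49 on the log2 scale, and PGK1 was -0.02 (SE 0.10). Among lysosome genes 5 of 18 fell and 2 rose (median -0.26), with 5 lower and 1 higher against HcRed. NPC2, which hands on cholesterol, measured 846, 736 and 823 CPM against 1677, 1489.8 and 1625 in GFP and 1105, 1076 and 1142 in HcRed wells, at -0.99 (SE 0.09, limma adjusted p = 8.39e-16). The sphingolipid activator PSAP was -0.95 (SE 0.14) and the protease CTSD -1.41 (SE 0.30), whereas the protease CTSC rose by 0.96 (SE 0.13) against GFP and was 0.13 (SE 0.13, limma adjusted p = 0.576) against HcRed. In the absence of CDKN2A replicate 3, 3 lysosome genes fell.

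Some genes downstream of growth factor signalling were higher against GFP. Of 18 ERK feedback and immediate early genes 5 rose and 0 fell (median 0.85), but against HcRed 1 rose (median 0.45). DUSP6, a phosphatase that dampens ERK, measured 17.6, 13.4 and 17.4 CPM in CDKN2A wells, 4.14, 0 and 2.13 in GFP and 2.46, 4.73 and 2.23 in HcRed wells, at 3.30 (SE 0.60, limma adjusted p = 7.94e-06) and 2.26 (SE 0.43, limma adjusted p = 2.12e-05). ETV5, a transcription factor, was 1.24 (SE 0.41, limma adjusted p = 0.0227), with 1 CDKN2A well inside the GFP range. The count of 5 was 2 with DESeq2 or without GFP replicate 3, and 3 without GFP replicate 1 or CDKN2A replicate 1. Of 9 genes of EGFR and its ligands 2 rose and 0 fell (median 0.61), and 1 rose against HcRed. AREG, amphiregulin, measured 119.8, 90.5 and 110.0 CPM against 35.6, 38 and 29.8 in GFP and 81.1, 83.7 and 75 in HcRed wells, at 1.63 (SE 0.17, limma adjusted p = 4.98e-13) and 0.40 (SE 0.15, limma adjusted p = 0.0531). EREG, epiregulin, was 1.80 (SE 0.39) and EGFR itself 0.61 (SE 0.24, limma adjusted p = 0.063). Both ligands that rose lie on 4q.

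Secreted proteins of the senescence-associated phenotype were higher in part. Of 15 tested 7 rose and 0 fell (median 1.01), and 3 rose and 1 fell against HcRed. Besides AREG, IGFBP7 measured 24.6, 28 and 23.5 CPM in CDKN2A wells, 14.1, 12.9 and 11.3 in GFP and 13.1, 12.8 and 8.17 in HcRed wells, at 0.97 (SE 0.26, limma adjusted p = 0.00318). The chemokine CCL20 had 73 counts over the CDKN2A wells and 3 over the GFP wells, a ratio of 17.9 (95% counting interval 5.88 to 88.7), and was 2.0 (SE 0.45, limma adjusted p = 5.35e-04) against HcRed. Of 12 metalloproteinases and plasminogen activation genes 4 rose and 0 fell (median 0.95), with 2 higher and 2 lower against HcRed. MMP10 had 19 counts in CDKN2A wells and 0 in GFP wells, at least 1.56-fold higher. PLAUR, the urokinase receptor, rose by 0.75 (SE 0.26). DESeq2 called 0 of these 12 genes, with 4 at an unadjusted p under 0.05, and edgeR called 4. The count of 4 was 1 without GFP replicate 1 and 2 without GFP replicate 2 or CDKN2A replicate 1. Of 8 NF-kB targets BIRC3 and CCL20 rose (median 1.11), and 3 rose against HcRed. BIRC3, an inhibitor of apoptosis, measured 32.6, 28.6 and 49.3 CPM against 10.8, 12.9 and 9.93 in GFP and 13.1, 14.2 and 8.91 in HcRed wells, at 1.65 (SE 0.27, limma adjusted p = 5.33e-07). DESeq2 called 3 of the 15 secreted proteins, and 4 rose without CDKN2A replicate 1 or GFP replicate 1.

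Among interferon-stimulated genes the calls against the controls differed in number. Of 16 tested 5 rose and 0 fell against GFP (median 0.50), whereas 2 rose and 2 fell against HcRed (median -0.29). IFI44 measured 22.5, 23.9 and 26.5 CPM in CDKN2A wells, 6.63, 7.28 and 4.25 in GFP and 13.1, 12.2 and 9.65 in HcRed wells, at 1.97 (SE 0.33, limma adjusted p = 1.49e-06) and 1.03 (SE 0.26, limma adjusted p = 0.00211). IFITM2 rose by 3.35 (SE 0.46), though reads that fit several near-identical IFITM genes would be missing from the counts. Of 12 genes of MHC class I presentation 2 fell and 0 rose (median -0.07), and 1 fell against HcRed. TAPBP, which loads peptides, was -1.25 (SE 0.17, limma adjusted p = 5.09e-09) and B2M, the light chain, -0.34 (SE 0.08, limma adjusted p = 7.01e-04).

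Several annexin, caveola and junction genes were lower. Of 7 annexins 5 fell and 1 rose (median -0.59), and 5 fell against HcRed. ANXA2 measured 2955, 2175 and 3003 CPM in CDKN2A wells, 4453, 4604 and 4778 in GFP and 3585, 3518 and 3700.4 in HcRed wells, at -0.78 (SE 0.08, limma adjusted p = 2.98e-14), while ANXA5, on 4q, rose by 0.45 (SE 0.09). Of 6 caveola genes 3 fell (median -0.54), also 3 against HcRed. CAV1, which builds the caveola coat, measured 556, 495 and 550.2 CPM against 829, 840.3 and 837 in GFP and 640.2, 694 and 754 in HcRed wells, and CAV2 23.5, 32.7 and 27.7 against 63.8, 49.3 and 56.7 in GFP and 52.5, 47.9 and 55.7 in HcRed wells. Both lie on 7q. Of 16 epithelial junction genes 6 fell and 1 rose (median -0.53), and 5 fell and 1 rose against HcRed. DSP, desmoplakin, measured 111, 182 and 94.4 CPM against 234, 261 and 208 in GFP wells, at -0.91 (SE 0.14, limma adjusted p = 1.40e-07), with CDKN2A replicate 2 nearest the controls. The desmosomal cadherins DSC3 and DSG3 were -1.12 (SE 0.23) and -0.88 (SE 0.24), the claudin CLDN7 -1.44 (SE 0.35), and CDH1, E-cadherin, -0.34 (SE 0.23, limma adjusted p = 0.344). EPCAM, an epithelial adhesion molecule, rose, at 57.8, 70.6 and 55.3 CPM against 29.8, 19.4 and 26.2 in GFP and 32, 23 and 28.2 in HcRed wells.

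The basal keratins KRT5 and KRT14 were the members of their list that fell, 2 of 11 with 0 higher (median -0.10). KRT5 measured 164, 157 and 139.5 CPM in CDKN2A wells, 225, 314 and 229.7 in GFP and 331, 316 and 301 in HcRed wells, at -0.72 (SE 0.13, limma adjusted p = 5.15e-06), and KRT14 was -0.91 (SE 0.18). Against HcRed 6 keratins fell (median -1.05). Mean KRT5 under DMSO was 153 CPM in CDKN2A cells, near NRG1, PIK3CA and FAT1 cells at 168, 171 and 181. FGFR1 and NRF2 cells were at 231 and 287 CPM. Mean KRT14 was 33.8 CPM in CDKN2A cells, against 6.92 in FAT1, 29.4 in NRG1, 31.9 in PIK3CA, 40.2 in FGFR1 and 84.9 in NRF2 cells. Of 10 mesenchymal genes FN1 rose and VIM, vimentin, fell at -0.91 (SE 0.31, limma adjusted p = 0.0302), while 4 fell against HcRed. Of 16 laminins, integrins and basement membrane genes 2 rose and 2 fell (median 0.01), and 1 rose and 4 fell against HcRed. COL17A1, the hemidesmosome collagen, measured 22.5, 16.9 and 21 CPM against 63, 66.3 and 50.3 in GFP and 38.5, 35.8 and 39.4 in HcRed wells, at -1.55 (SE 0.20, limma adjusted p = 5.18e-10), and ITGB1 was -0.69 (SE 0.13). ITGA2, an integrin chain that binds collagen, rose by 1.06. Of 8 antiproteases and secreted airway proteins 5 fell and 0 rose (median -0.51), and 4 fell against HcRed. SERPINB1, which blocks neutrophil proteases, was -1.02 (SE 0.16, limma adjusted p = 3.71e-07) against GFP and -0.33 (SE 0.17, limma adjusted p = 0.212) against HcRed. CSTA, a cysteine protease inhibitor, was -0.61 (SE 0.10) and SERPINB2 -2.92 (SE 0.50). Leaving out GFP replicate 3, 3 of the 8 fell.

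Of 12 S100 proteins 6 rose and 2 fell (median 0.46), but 3 rose and 5 fell against HcRed. S100A13 measured 789, 659 and 713 CPM in CDKN2A wells, 449, 473 and 452 in GFP and 398, 310.0 and 382 in HcRed wells, at 0.65 (SE 0.10, limma adjusted p = 3.51e-07). S100A10, the partner of ANXA2, was -0.59 (SE 0.08, limma adjusted p = 1.43e-08) and S100A11 -0.59 (SE 0.09, limma adjusted p = 2.18e-08). Of 20 actin and contractile genes 7 fell and 4 rose (median -0.16), and 6 fell and 3 rose against HcRed. ACTG1, cytoplasmic gamma actin, measured 342, 384 and 334 CPM against 146, 193 and 106 in GFP and 228, 239.7 and 249 in HcRed wells, at 1.30 (SE 0.13, limma adjusted p = 3.00e-14), while MYL6, a myosin light chain, was -0.79 (SE 0.08, limma adjusted p = 8.62e-15) and ACTB 0.05 (SE 0.10). With DESeq2, and without GFP replicate 3, 2 of the 20 rose. Of 19 ATF4 and ER stress genes 3 fell and 2 rose (median -0.18), against 1 and 4 in the comparison with HcRed. The 3 that fell, PSAT1, ASNS and PHGDH, make amino acids, and those that rose were the chaperones HSPA5, at 0.76 (SE 0.12, limma adjusted p = 5.98e-07), and HSP90B1, at 0.43 (SE 0.12). HSPA5 was also higher than HcRed, at 0.80 (SE 0.13, limma adjusted p = 5.36e-07). Of 13 long noncoding and snoRNA host RNAs 6 rose and 2 fell (median 0.16), with 5 and 1 against HcRed. MALAT1, a nuclear RNA, measured 32827, 29047 and 32251 CPM against 23678, 21567 and 20792 in GFP and 23759, 24044 and 25048 in HcRed wells, at 0.52 (SE 0.05, limma adjusted p = 2.64e-14), and ZFAS1 was -0.70 (SE 0.10).

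**Figure D3:**
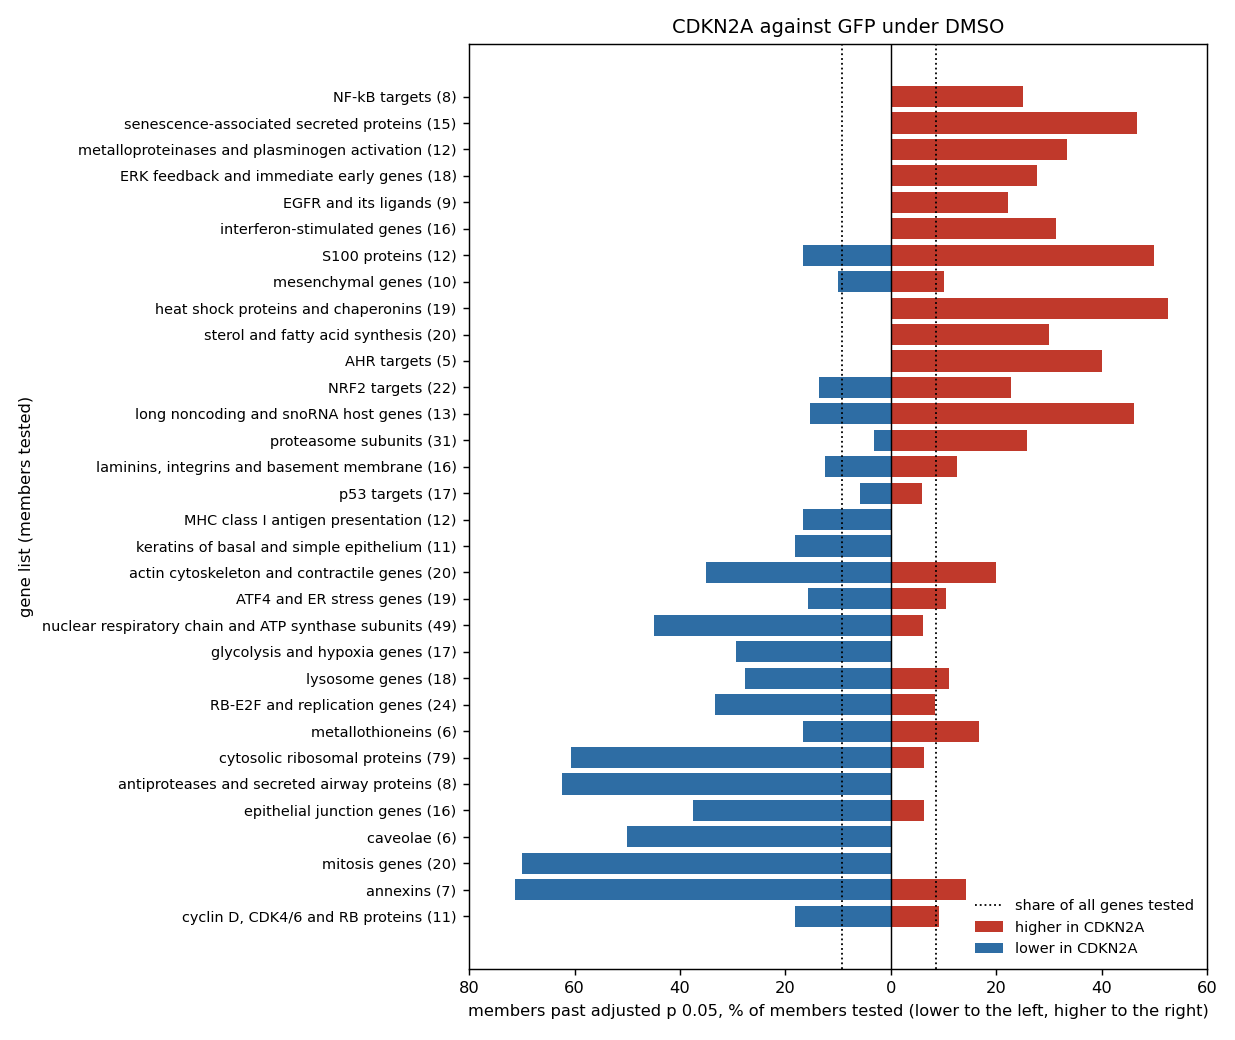
Share of the tested members of each gene list that were higher (right) or lower (left) in CDKN2A than in GFP cells at adjusted p 0.05, in percent, ordered by the median log2 fold change, with the number tested in brackets. The dotted lines are the shares of all tested genes, 8.64% higher and 9.22% lower. With a mean count above 10 the shares were larger, at 1004 higher and 983 lower of 6188 genes. Mitosis genes reach 14 of 20 to the left and heat shock proteins 10 of 19 to the right.

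Position on the chromosomes was looked at after the values were seen, and is given without a test. Among 41 arms with at least 20 tested genes, the median log2 fold change against GFP was lowest on 9p at -0.53, the arm of CDKN2A itself, where 37 of 125 tested genes fell and 1 rose. It was -0.50 on 7q (90 of 317 fell, 4 rose), -0.40 on 10p (23 of 109) and -0.38 on 9q (77 of 333). The highest medians were 0.75 on 4q (114 of 305 rose, 2 fell), 0.48 on 3q (100 of 365), 0.47 on 2p (82 of 312) and 0.43 on 11q (93 of 412). Against HcRed the medians of these arms in the same order were -0.52, -0.41, -0.37 and -0.19, then 0.38, 0.67, 0.17 and 0.20. On 16p the median was 0.37 against GFP but -0.31 against HcRed. CDKN2A lay between the controls there, and the GFP median was -0.66 against HcRed.

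For 9p the median deviation from the mean of the 8 populations in log2 CPM, over 33 genes of at least 20 CPM, was -0.60, -0.69 and -0.52 in the CDKN2A wells. It was 0.13, 0.21 and 0.11 in the GFP wells and 0.04, -0.07 and 0.06 in the HcRed wells, so the CDKN2A wells stood apart from both controls. For 4q the GFP wells were low, at -0.42, -0.42 and -0.45, and the CDKN2A wells were high, at 0.33, 0.15 and 0.35. The HcRed wells lay between, at 0.01, -0.06 and 0.01, and the FAT1 wells were also low, at -0.35, -0.24 and -0.24. Of the 1394 tested genes on the 4 highest arms 30.2% passed the test, and of the 884 on the 4 lowest 27.0%, compared with 15.3% of the 8977 genes elsewhere. The 8 arms were picked by their medians in this same comparison, so larger shares there are partly built in by the choice. The 4 highest arms held 389 of the 982 higher genes placed on an arm (39.6%), and the 4 lowest 227 of the 1048 lower ones (21.7%). Of the 17 higher genes named by rank, size or both controls, 10 lie on the 4 highest arms and 0 on the 4 lowest. Of the 15 lower genes named so, 5 lie on the 4 lowest arms and 0 on the 4 highest. Away from these 8 arms, 789 of all 8977 genes fell and 581 rose. Of the lists, 13 of 19 mitosis genes, 45 of 66 ribosomal proteins and 19 of 41 respiratory chain genes fell there, and 7 of 14 heat shock proteins and 4 of 14 sterol genes rose. There 3 of 9 secreted proteins and 1 of 8 metalloproteinase and plasminogen genes rose, while 0 of 5 genes of EGFR and its ligands and 0 of 3 AHR targets did. The part of arm position in the list counts and in the named genes was not tested.

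**Figure D4:**
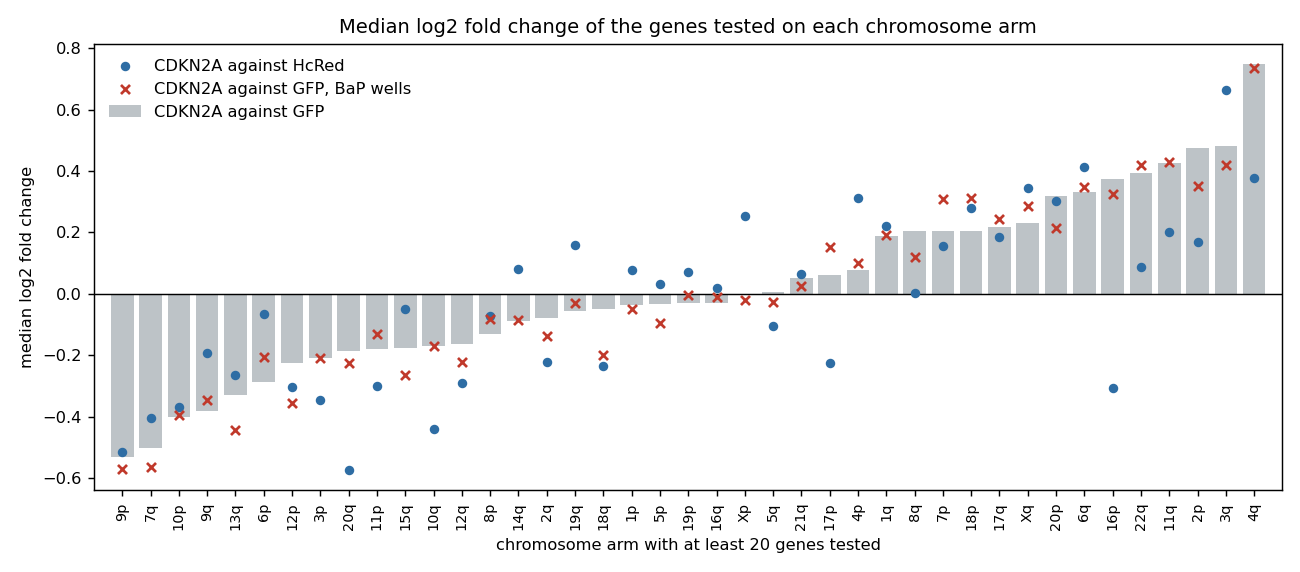
Median log2 fold change of the tested genes on each of 41 chromosome arms, for CDKN2A against GFP (bars) and against HcRed (points) under DMSO and against GFP in the BaP wells (crosses). On 9p the 3 values are -0.53, -0.52 and -0.57, and on 16p the bar stands at 0.37 with the HcRed point at -0.31.

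The same contrast was available in wells that the DMSO comparison did not use. Under benzo[a]pyrene (BaP, 173 µM), with CDKN2A replicates 1 and 3 against 3 GFP wells, 1741 of 10565 genes passed (16.5%), 944 higher (8.94%) and 797 lower (7.54%). Of the 2067 genes that differed under DMSO 2042 could be tested there. The direction was the same for 1973 (96.6%), and 1219 (59.7%) passed in that direction and 0 in the other. Genes that did not pass under DMSO kept the direction in 66.9% and passed in 6.23%. Without CDKN2A replicate 2 of DMSO, 97.0% of the genes called had the same direction.

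The 32 genes named by rank, size or both controls were followed in each chemical. In the BaP wells all 32 were without overlap on the same side as under DMSO, where 42.3% of genes had no overlap. SC5D was 2.04 (SE 0.14, limma adjusted p = 4.13e-18), SERPINI1 2.28 (SE 0.22, limma adjusted p = 2.68e-12) and PMP22 4.51 (SE 0.67, limma adjusted p = 5.57e-07). MFAP5 was -3.85 (SE 0.44, limma adjusted p = 6.88e-10) and MELK -2.03 (SE 0.18, limma adjusted p = 4.54e-13). In the wells of the nitrosamine NNK (490 µM) all 32 again lay on the same side (32% of genes without overlap), and in those of cigarette smoke condensate (CSC, 24 µg/ml) 31 did (33.4%), with KRTDAP overlapping. Several NNK and CSC wells of CDKN2A cells carry 2-digit numbers whose meaning the sources used here do not give, so no test was made within either chemical alone. The fit with chemical as a covariate took only wells with 1-digit numbers. Its only NNK well of CDKN2A cells was replicate 3.

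CDKN2A itself was less clear in those wells. Under BaP it measured 26.1 and 18.4 CPM in CDKN2A cells and 29.6, 24.4 and 36.2 in GFP cells, which overlapped, at -0.37 (SE 0.26, limma adjusted p = 0.369). Under NNK the wells measured 26, 16 and 18.7 against 28.6, 23.4 and 28.2 CPM and overlapped too. Under CSC they measured 11.9, 13.8 and 14.7 against 23.5, 42.1 and 23.9 CPM without overlap. Mitosis genes fell in 12 of 20 and rose in 0 under BaP, ribosomal proteins fell in 45 and rose in 15 of 79, heat shock proteins rose in 11 and fell in 1 of 19, and interferon-stimulated genes rose in 7 of 15.

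**Figure D5:**
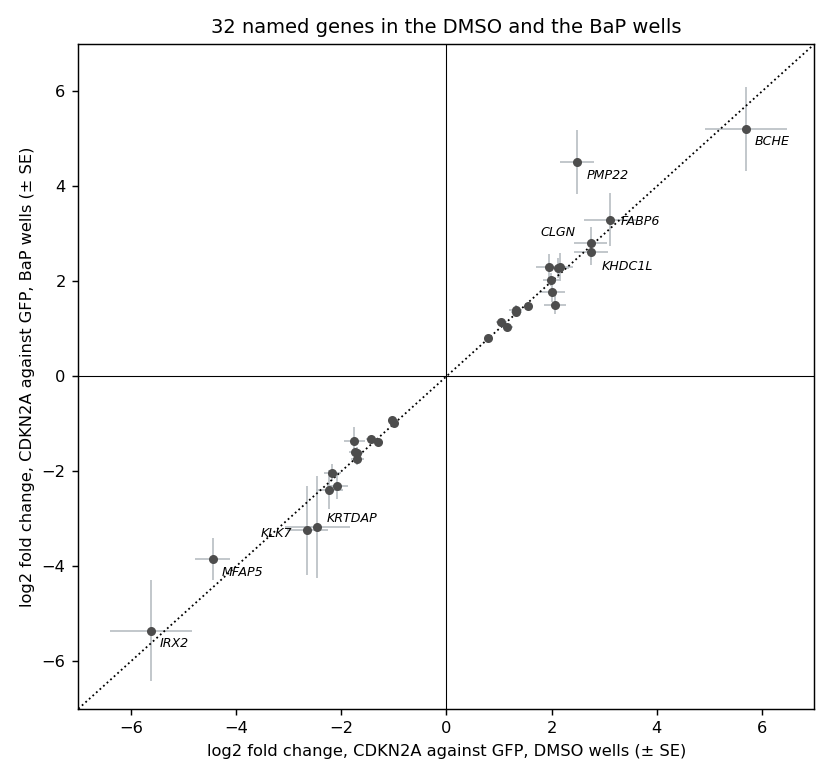
Log2 fold change of CDKN2A against GFP for 32 named genes in the DMSO wells (horizontal axis) and in the BaP wells (vertical axis), with standard errors as bars and the line of equality dotted. All points lie in the quadrants of equal sign, from IRX2 at the lower left to BCHE at the upper right.

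Ribosomal protein genes, FTL, FTH1, HSP90AA1, HSPD1, GAPDH, ANXA2, HSPA1A and the IFITM and metallothionein genes have near-identical copies in the genome. Their levels are uncertain to the extent that reads matching several genes were left out of the counts.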

How the data were processed

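AALE cells were profiled by 3′DGE in 95 wells. The authors deposited raw UMI counts per gene for each well (23895 symbols), made by aligning reads to RefSeq hg19 transcripts with BWA and counting each UMI once per gene and well. From these counts, genes with a mean count above 1 in the wells compared were tested with limma-voom (limma 3.58.1, edgeR 4.0.16 for TMM scaling, R 4.3.3), two-sided, with Benjamini-Hochberg adjustment at 0.05. The CDKN2A, GFP and HcRed wells under DMSO were grouped by title, and the BaP comparison used 2 against 3 wells. Levels are CPM with TMM factors. Totals of 1168645 to 1792617 UMIs per well limit precision at low counts. Symbols were placed with GENCODE v44lift37. Promoters came from RefSeq GRCh38.p14. The genes named were the 8 of smallest adjusted p and the 6 of largest change in each direction, 6 past both controls, and up to 4 per list and direction. Members and lists were chosen with earlier results of these data known. The fit was tested on simulated data. DESeq2 1.42.0, edgeR, other scalings and filters, thinning, a replicate block and leaving out each well were alternatives. Some genes of the lists are counted but not reported by name.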

Additional observations from a re-analysis of the deposited data

How the results depend on the processing

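The count of 2067 genes between CDKN2A and GFP cells stayed within 1.5 times under other scalings, filters and edgeR. DESeq2 called 1247 genes there, 943 against HcRed, 659 between the controls and 854 under BaP. A fit over the DMSO, BaP and NNK wells with 1-digit numbers, with chemical as a covariate, called 3496. Leaving out 1 well gave 1413 to 2203 genes against GFP, 1108 to 1995 against HcRed, 913 to 1020 between the controls and 1121 to 1545 under BaP, the lowest without CDKN2A replicate 1. Same-numbered wells did not deviate together (correlations of -0.01 to 0.05), so the numbers do not pair the wells, and a replicate block gave 2260, 1883, 1255 and 1493 genes in the same order.

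Values near 0 changed sign without passing the test. With library totals CDKN1A was 0.0455 and PGK1 0.0952 in log2, with a mean count above 10 PGK1 was 0.0104, and with chemical as a covariate ACTB was -0.00608 and PGK1 0.0672. Leaving out 1 well gave a range of -0.124 to 0.108 for CDKN1A, -1.14 to 0.318 for CDKN2B-AS1, -0.0322 to 0.184 for ACTB and -0.0787 to 0.102 for PGK1. At these depths, genes with few counts a well, such as CDKN2B and CDKN2B-AS1, could not show small differences.

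Of 164 named genes 19 did not pass in the main fit and had no call to lose. Of the others 18 lost their call without at least 1 well. These were ETV5, HSPA8, MKI67, PLAUR, RB1, TK1 and VIM without CDKN2A replicate 1, AURKB, CDC20 and ETV5 without replicate 2, and AURKB, CDC20, CDKN1C, HSPA8, MKI67, TALDO1 and VIM without replicate 3. Leaving out GFP replicate 1 added HSP90B1 and ITGA2 to these genes, replicate 2 none, and replicate 3 added B2M, CYP1B1, PSMC3, PTTG1 and SLPI.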
